A study of Mus musculus with 8 samples.

Results

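The 34 genes described here mark the epithelium of the bile ducts, the cholangiocytes, and of the small ductules that branch from them, and were taken by symbol from the 55450 genes of the count tables. RNA was measured in 8 mouse livers, 4 controls with floxed Cebpa alleles and no Cre (Cre-, Cebpa flox/flox, titled WT) and 4 knockouts with Cre whose hepatocytes lack Cebpa (Cre+, titled KO). The labels name hepatocytes as the site of the deletion and do not name the promoter that drives Cre. All 8 mice, aged 10 weeks, had 5 days on liquid control food and then 4 weeks on liquid food containing 5% (vol/vol) ethanol. The question is which duct genes differed between the genotypes under ethanol, and livers without ethanol are not analysed here. The labels do not tie livers to litters, so p-values measure only the spread between these livers.

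Cholangiocytes and hepatocytes arise from the same fetal precursor, and the balance of hepatocyte factors such as C/EBP alpha, the product of Cebpa, and of biliary factors such as SOX9 separates the lineages. Cholangiocytes line the ducts, carry a primary cilium that senses bile flow, and add water and bicarbonate to bile. In injured livers, cells with biliary markers can multiply at the portal tract, a response called the ductular reaction, and hepatocytes can take up some of the same markers.

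Cebpa, the targeted gene, followed the genotype labels in all 8 livers, at 264 to 320.3 CPM (counts scaled to a common library total) in controls and 5.44 to 9.26 CPM in knockouts (log2 fold change -5.38, SE 0.18, edgeR adjusted p = 4.784e-07, two-sided exact permutation p = 0.0286, the smallest that 70 splits allow). The estimated counts summed to between 21048350 and 28148744 per liver, so that 1 count was worth 0.0341 to 0.0485 CPM. Control 2 lay farthest from the rest of its group over all genes (root mean square log2 distance 0.531, against 0.391 to 0.435 for the other controls), and knockout 4 farthest from its own (0.459, against 0.381 to 0.411).

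Of the 34 duct genes, 28 had enough counts to be tested. In the knockout livers 5 rose (Krt19, Epcam, Pkhd1, Bicc1 and Spp1) and none fell, at an adjusted p below 0.05 in edgeR's quasi-likelihood test. Over all 13303 genes tested, 2.06% were called, 0.849% as higher and 1.21% as lower (113 and 161 genes, 161 and 115 with library size alone as scaling, and 144 and 84 with limma on log2(TPM + 1)). At an unadjusted p below 0.05, 19 of the 28 were higher and 1, Atp1b1, was lower, where the whole table had 9.61% higher and 8.9% lower. The 28 tested duct genes had a median log2 fold change of 0.80, against 0.004 for all genes tested, and 24 of the 28 fold changes were positive, against 50.7% of all genes tested. For 7 of the 28 (Krt7, Krt19, Muc1, Vtcn1, Ehf, Elf3 and Spint1), fewer than 4 controls reached the count filter, about 0.429 CPM, so a count over the tested genes favours those that were high in the knockouts. Counting all 34 whether tested or not, every knockout liver lay above every control for 13, namely Krt7, Krt19, Epcam, Cldn4, Prom1, Ddr1, Alcam, Ehf, Elf3, Pkhd1, Pkd2, Bicc1 and Spp1. No duct gene showed the opposite separation. Among the 23236 genes with any count, 3.99% lay wholly above and 3.77% wholly below.

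The calls stood close to the threshold. In fits with 1 liver left out, no duct gene was called without control 3, control 4, knockout 1 or knockout 2, 2 were called without control 1, 7 without control 2, 5 without knockout 3 and 4 without knockout 4. The calls over the whole table also moved. They were 62 higher and 97 lower genes without control 1, 94 and 135 without control 2, and 61 and 78 without control 3. Without control 4 they were 59 and 93, without knockout 1 46 and 69, and without knockout 2 47 and 61. Without knockout 3 they were 69 and 88, and without knockout 4 they were 167 and 205. DESeq2 called 10 duct genes as higher, the same 5 with Cd24a, Ddr1, Prom1, Tm4sf4 and Vtcn1, and Atp1b1 as lower. It called 5.54% of 15115 genes, 2.54% as higher.

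**Figure D1:**
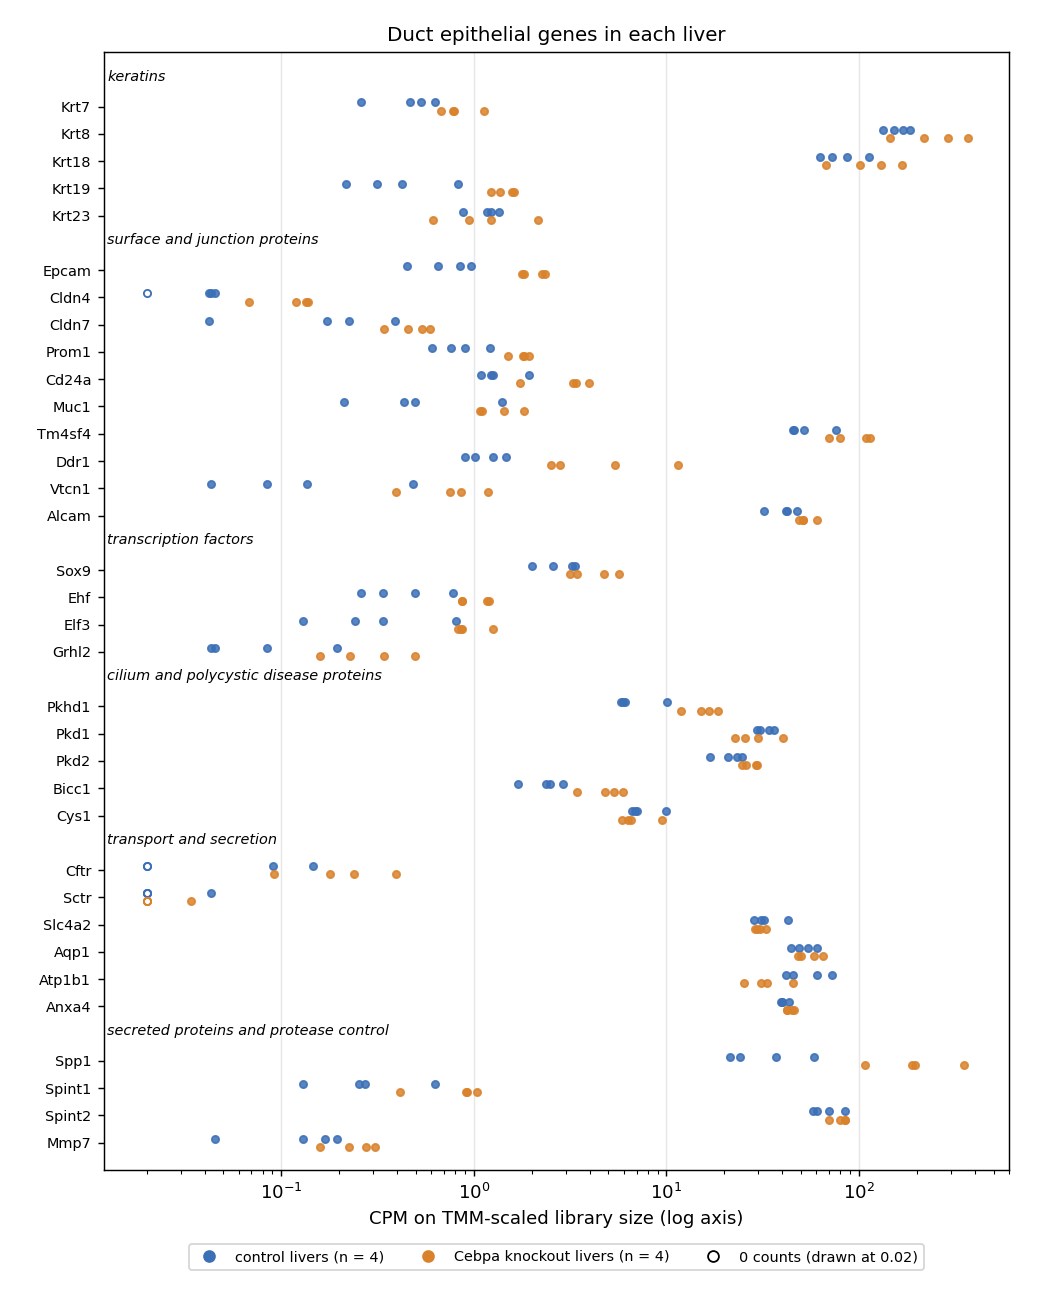
Level of each of the 34 duct genes in each liver, as CPM on a log axis, with 4 control livers (blue) and 4 knockout livers (orange) and the genes grouped by role. Open circles stand for 0 counts. Spp1 had controls at 21.3 to 58.1 CPM and knockouts at 107 to 353 CPM, while the groups of Aqp1, Slc4a2 and Cys1 overlapped.

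The promoters of Spp1 and Epcam are shown as the upstream letters of a pair of genes that rose together. Each sequence is the 250 bases before the RefSeq transcription start in GRCm38.p6, read 5′ to 3′ on the gene's strand, from chr5:104434861-104435110 (plus strand) for Spp1 and chr17:87635729-87635978 (plus strand) for Epcam. Capitals mark a match to the core letters of the ETS factors in Spp1, 111 to 106 bases before the start. The Epcam window held none of the motifs searched.
Spp1: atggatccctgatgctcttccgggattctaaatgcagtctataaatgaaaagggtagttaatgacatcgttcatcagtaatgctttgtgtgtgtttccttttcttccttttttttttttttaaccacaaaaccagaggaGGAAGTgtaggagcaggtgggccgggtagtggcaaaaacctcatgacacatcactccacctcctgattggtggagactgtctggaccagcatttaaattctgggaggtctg
Epcam: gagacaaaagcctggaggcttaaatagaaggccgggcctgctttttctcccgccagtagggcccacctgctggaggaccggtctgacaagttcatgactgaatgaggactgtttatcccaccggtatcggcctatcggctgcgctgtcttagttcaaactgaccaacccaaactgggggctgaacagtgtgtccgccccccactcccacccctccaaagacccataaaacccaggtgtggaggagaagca

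RefSeq windows were found for 27 of the 34 genes, 36 windows in all, and were searched on both strands. The C/EBP letters TTGCNNAA were in 13.9% of duct gene windows and 9.56% of the 32851 windows of all genes, in Anxa4, Krt23, Mmp7, Vtcn1 and the other Spp1 window. The ETS letters GGAAGT were in 27.8% and 19.7%, and the AP-1 letters TGANTCA in 13.9% and 6.75%. The grainyhead letters AACCNGTT were in 8.33% and 1.79% (Muc1 and Prom1), the TEAD letters GGAATG in 11.1% and 12.6%, and the RBPJ letters TGGGAA in 22.2% and 21.6%. In Prom1 the grainyhead and RBPJ matches overlapped. The ETS letters were added after the sequences had been read. A match is a string of letters and measures no binding.

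The keratins, which build the filaments of epithelial cells, were all tested, and Krt19 rose while the other 4 did not pass the test. Krt19 (ENSMUSG00000020911.14, mm10 chr11:100140810-100148665, minus strand) encodes a filament protein that marks biliary cells in the adult liver. It was at 0.316, 0.825, 0.421 and 0.217 CPM in controls 1 to 4 and at 1.62, 1.58, 1.37 and 1.23 CPM in knockouts 1 to 4. The groups did not overlap, and control 2 was the nearest control. This was a log2 fold change of 1.71 (SE 0.365, edgeR adjusted p = 0.0467). The call held without control 2 (log2 fold change 2.16, edgeR adjusted p = 0.0155) and was lost on leaving out any 1 of the other 7 livers, with an adjusted p of 0.0539 without knockout 4, 0.0945 without control 4, 0.0962 without knockout 3, and 0.106 to 0.119 without control 1, control 3, knockout 1 or knockout 2.

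Krt8 and Krt18, a pair that hepatocytes and ducts both make, had the highest control means of the duct genes per transcript length, at 112 ± 15.1 and 83.7 ± 23.0 TPM (SD, n = 4, the authors' values scaled to length and library total), although Spint2, at 81.5 ± 15.5 TPM, lay within the spread of Krt18. Krt8 was at 184, 169, 152 and 133 CPM in controls 1 to 4 and at 291, 368, 217 and 145 CPM in knockouts 1 to 4. Only knockout 4 lay within the control range. The log2 fold change of 0.68 (SE 0.255) had an edgeR adjusted p of 0.206, of 0.0409 without knockout 4 and of 0.421 without knockout 2. RSEM divided some Krt8 reads with other loci, since its count was not whole in 7 livers. Krt18 ranged from 62.6 to 113 CPM in controls and from 67.4 to 168 CPM in knockouts (log2 fold change 0.48, edgeR adjusted p = 0.416), with knockout 2 highest for both genes. Krt7, a type II keratin of ducts, did not overlap between groups in CPM (0.26 to 0.632 against 0.673 to 1.12) but did in TPM, where control 2 had 0.65 and knockout 2 had 0.45. Krt23, a type I keratin, ranged from 0.873 to 1.35 CPM in controls and from 0.614 to 2.15 CPM in knockouts, and its log2 fold change of 0.08 took the opposite sign without control 2 or knockout 3.

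The keratin mixture can be read per length. Krt19 amounted to 0.321 to 0.778 TPM for every 100 TPM of Krt18 in controls and to 0.96 to 1.63 TPM in knockouts, without overlap. Krt7 for every 100 TPM of Krt8 did overlap, at 0.239 to 0.533 TPM in controls and 0.153 to 0.519 TPM in knockouts. The sum of the type II keratins over that of the type I keratins was 1.04 to 1.68 in controls and 1.48 to 1.56 in knockouts. Of 45 other keratin genes, 36 had 0 counts in all livers and 1 was tested.

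Among the surface and junction proteins Epcam rose, and the other 7 tested genes had positive fold changes that did not pass adjustment. All 8 tested were higher at an unadjusted p below 0.05 in edgeR, against 9.61% of all genes tested, and their median log2 fold change was 1.14. Muc1 and Vtcn1 reached the count filter in 2 and 1 of the controls, so the count and the median favour genes that were high in the knockouts. Epcam (ENSMUSG00000045394.9, mm10 chr17:87635979-87651129, plus strand) encodes an adhesion protein of biliary cells and liver progenitors. It was at 0.451, 0.971, 0.843 and 0.651 CPM in controls 1 to 4 and at 2.25, 2.33, 1.83 and 1.77 CPM in knockouts 1 to 4. The highest control was well below the lowest knockout. This was a log2 fold change of 1.48 (SE 0.264, edgeR adjusted p = 0.0216). The adjusted p passed the threshold upward without control 3 (0.0512), control 4 (0.0699), knockout 1 (0.0705) or knockout 2 (0.0659).

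Ddr1, a receptor tyrosine kinase that binds collagen, was at 0.903, 1.26, 1.01 and 1.48 CPM in controls 1 to 4 and at 2.79, 5.38, 2.51 and 11.5 CPM in knockouts 1 to 4. All knockouts exceeded all controls, and knockout 4 was the highest. Its log2 fold change of 2.26 (SE 0.504) had an edgeR adjusted p of 0.0598. Without knockout 4 it was 1.61 with an edgeR adjusted p of 0.034, and without knockout 3 the edgeR adjusted p was 0.0417. Without knockout 2 the edgeR adjusted p was 0.146. The other tested surface genes, Prom1, Cd24a, Muc1, Tm4sf4, Vtcn1 and Alcam, had log2 fold changes from 0.37 (Alcam, an adhesion protein of the immunoglobulin family) to 2.10 (Vtcn1, an inhibitory ligand of the B7 family). Leaving out control 2, which was the highest control for Prom1, Cd24a, Muc1, Tm4sf4, Vtcn1 and Alcam, brought the edgeR adjusted p of Prom1 from 0.069 to 0.0468, of Muc1 from 0.25 to 0.0471, of Tm4sf4 from 0.104 to 0.0354 and of Vtcn1 from 0.112 to 0.0318. Cd24a, a small glycosylated surface protein, went from 0.0719 to 0.0381 without knockout 3. Other fits with 1 liver left out raised these values. The highest edgeR adjusted p was 0.162 for Prom1, 0.474 for Muc1, 0.2485 for Tm4sf4, 0.214 for Vtcn1 and 0.169 for Cd24a. Tm4sf4, a membrane protein of the tetraspanin-like family, was the most abundant of the 10 surface genes, at 52.1 TPM in controls and 96 TPM in knockouts.

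Both claudins, the strands of tight junctions, were too sparse to test. For Cldn4, the controls together held 3 counts and the knockouts 11, which is 3.33 times as many after scaling (95% counting interval 0.879 to 18.6). Cldn7 had 18 and 47 counts, a ratio of 2.37 (1.35 to 4.33). These intervals cover counting error only.

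**Figure D2:**
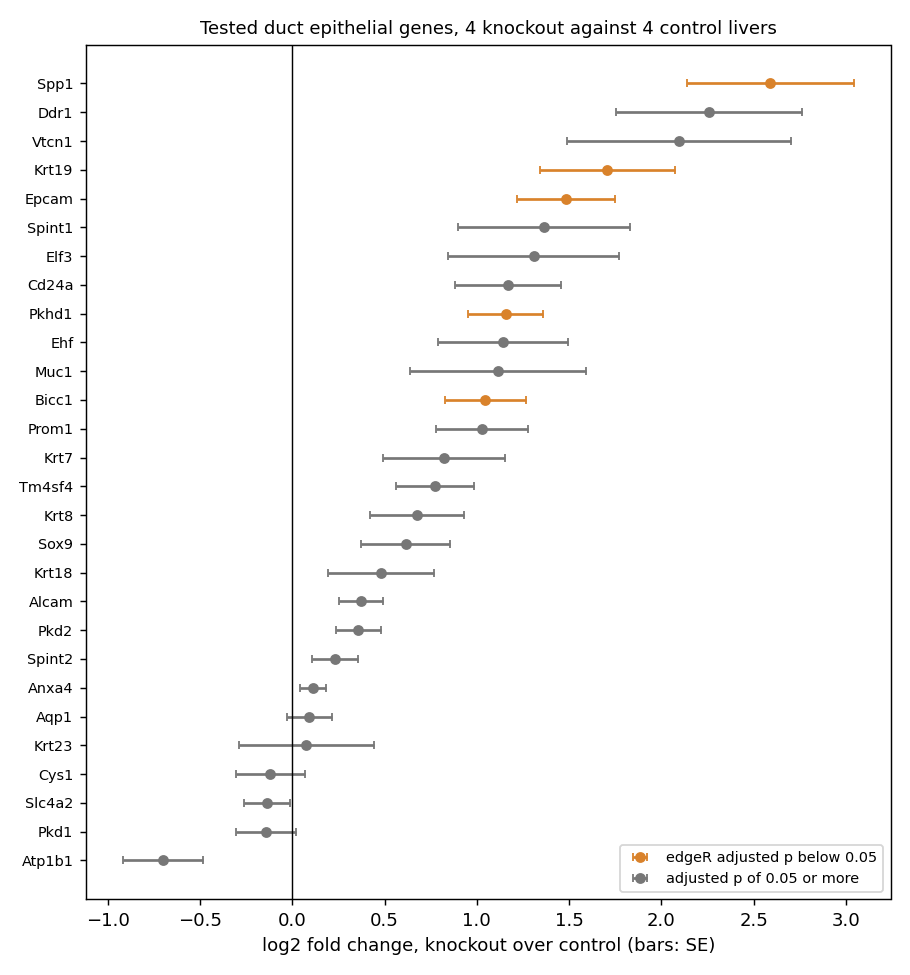
Log2 fold change of the 28 tested duct genes, knockout over control, with bars of 1 SE, over 4 livers a group. Orange marks the 5 genes with an edgeR adjusted p below 0.05, and Atp1b1 at -0.70 lies farthest below 0.

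Of the transcription factors of epithelial fate, 3 of 4 were tested and none passed adjustment. All 3 were higher at an unadjusted p below 0.05 in edgeR, against 9.61% of all genes tested. Ehf and Elf3, epithelial members of the ETS family, had the smallest p. They reached the count filter in 2 and 1 of the controls, so they were tested through their knockout levels. Ehf was at 0.496, 0.776, 0.337 and 0.26 CPM in controls 1 to 4 and at 1.17, 0.87, 0.868 and 1.19 CPM in knockouts 1 to 4. Elf3 was at 0.812, 0.243, 0.337 and 0.13 CPM in controls and at 1.26, 0.87, 0.823 and 0.853 CPM in knockouts. Neither overlapped, though the highest control of each came close to the lowest knockout. Ehf had a log2 fold change of 1.14 (SE 0.352, edgeR adjusted p = 0.13) and Elf3 of 1.31 (SE 0.462, edgeR adjusted p = 0.175). Sox9, which specifies the biliary lineage, was at 2.0 to 3.34 CPM in controls and 3.14 to 5.66 CPM in knockouts, with overlap (log2 fold change 0.61, edgeR adjusted p = 0.212). Grhl2, a grainyhead factor of epithelial barriers, was not tested, with 8 counts in controls and 30 in knockouts, a ratio of 3.40 (95% counting interval 1.52 to 8.59).

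Among the proteins of the cilium and of polycystic disease, Pkhd1 and Bicc1 rose, and Pkd1, Pkd2 and Cys1 did not pass the test. Pkhd1 (ENSMUSG00000043760.16, mm10 chr1:20057779-20618064, minus strand) encodes fibrocystin, a ciliary membrane protein whose loss causes cystic disease of bile ducts and kidney. It was at 10.02, 5.92, 5.81 and 6.12 CPM in controls 1 to 4 and at 18.6, 16.6, 15.1 and 11.9 CPM in knockouts 1 to 4. Control 1 stood above the other controls and below every knockout. This was a log2 fold change of 1.16 (SE 0.203, edgeR adjusted p = 0.021), and 1.38 without control 1 (edgeR adjusted p = 0.00599). The call was lost without control 2, 3 or 4 or knockout 1, 2 or 3, with an adjusted p from 0.0529 (control 2) to 0.0725 (control 4).

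Bicc1 (ENSMUSG00000014329.14, mm10 chr10:70922832-71159700, minus strand) encodes an RNA-binding protein that acts with the polycystins in renal and biliary tubules. It was at 2.48, 2.38, 2.91 and 1.69 CPM in controls 1 to 4 and at 4.81, 5.93, 3.43 and 5.35 CPM in knockouts 1 to 4. Knockout 3 lay nearest to the controls, and the groups did not overlap. This was a log2 fold change of 1.05 (SE 0.221, edgeR adjusted p = 0.0435). The call held without knockout 3 (edgeR adjusted p = 0.0381) and was lost without any 1 of the other 7 livers, with an adjusted p of 0.0647 without knockout 4, 0.0658 without control 3, 0.0808 to 0.0946 without control 1, 2 or 4, 0.104 without knockout 1 and 0.125 without knockout 2. Genes on the opposite strand overlap Pkhd1 (4930486I03Rik) and Bicc1 (4930533K18Rik among others), and without the strand setting of the counting, which is not given in the sources used here, their reads cannot be told apart.

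The polycystins showed no common direction. Pkd2, the channel subunit, had 16.8 to 24.6 CPM in controls and 24.8 to 29.6 CPM in knockouts, a narrow separation (log2 fold change 0.36, edgeR adjusted p = 0.16). Pkd1, its large partner, had 29.6 to 36.3 CPM and 22.7 to 40.1 CPM (log2 fold change -0.14, edgeR adjusted p = 0.672), and it overlaps Tsc2 on the opposite strand. Cys1, a ciliary membrane protein, had 6.64 to 9.95 CPM and 5.87 to 9.46 CPM (log2 fold change -0.12, edgeR adjusted p = 0.772). On log2 TPM values the small differences of Pkd1 and Cys1 took the opposite sign.

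None of the transport and secretion genes passed adjustment. Of the 6, 4 were tested, with a median log2 fold change of -0.02, and Atp1b1 alone had an unadjusted p below 0.05. Atp1b1, the beta subunit of the sodium pump, which hepatocytes and ducts both carry, was at 41.7, 72.3, 60.7 and 45.2 CPM in controls 1 to 4 and at 33.2, 45.5, 31.0 and 25.4 CPM in knockouts 1 to 4. Knockout 2 lay just above the lowest 2 controls, and the other knockouts lay below all controls. Its log2 fold change of -0.70 (SE 0.217) had an edgeR adjusted p of 0.137, while DESeq2 called it (adjusted p = 0.0289). It overlaps Nme7 on the opposite strand. Anxa4, an annexin of apical membranes, was at 43.5, 39.4, 39.7 and 40.1 CPM in controls and at 42.2, 46.2, 45.1 and 42.1 CPM in knockouts. Its log2 fold change of 0.11 did not pass the test (SE 0.07, edgeR adjusted p = 0.432).

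Slc4a2, the anion exchanger that exports bicarbonate, had a log2 fold change of -0.14 (SE 0.122), and Aqp1, a water channel that endothelium also carries, of 0.09 (SE 0.123). Neither passed the test, and that of Slc4a2 took the opposite sign on log2 TPM values. Cftr, the chloride channel of the apical membrane, had 5 counts in controls and 23 in knockouts, a ratio of 4.17 (95% counting interval 1.55 to 14.1). Sctr, the receptor for secretin, a hormone to which ducts but not hepatocytes respond, had 1 count in each group, so no difference could be seen at this depth.

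Among the secreted proteins and protease regulators Spp1 rose, and Spint1 and Spint2 did not pass the test. Spp1 (ENSMUSG00000029304.14, mm10 chr5:104435118-104441050, plus strand) encodes osteopontin, a secreted phosphoprotein made by biliary cells and also by activated macrophages and stellate cells. It was at 36.9, 58.1, 21.3 and 24.0 CPM in controls 1 to 4 and at 195, 353, 107 and 188 CPM in knockouts 1 to 4. The lowest knockout was above the highest control, and knockout 2 was the highest liver. This was a log2 fold change of 2.59 (SE 0.453, edgeR adjusted p = 0.0359). The call held without control 2 or knockout 3 and was lost without control 1 (edgeR adjusted p = 0.0892), control 3 (0.0807), control 4 (0.0837), knockout 1 (0.0841), knockout 2 (0.0655) or knockout 4 (0.0595). Its fold change was the largest estimate among the 28 tested duct genes, within an SE of that of Ddr1. In TPM, Spp1 had the fifth highest control mean of the duct genes, 36.1 ± 17.8, and the highest knockout mean, 235 ± 124, which did not exceed that of Krt8, 195 ± 78.9, beyond the spread (SD, n = 4). Its counts were not whole in 3 livers, and Gm42793 overlaps it on the same strand.

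Spint1, a membrane inhibitor of serine proteases, was at 0.271, 0.631, 0.253 and 0.13 CPM in controls 1 to 4 and at 1.03, 0.91, 0.411 and 0.921 CPM in knockouts 1 to 4. Control 2 was above knockout 3, and the other livers were separated (log2 fold change 1.37, SE 0.466, edgeR adjusted p = 0.16). Its relative Spint2 had a log2 fold change of 0.23 (SE 0.124, edgeR adjusted p = 0.351). Mmp7, a matrix protease of stressed duct epithelium, was not tested, with 12 counts in controls and 24 in knockouts, a ratio of 1.82 (95% counting interval 0.873 to 3.98).

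**Figure D3:**
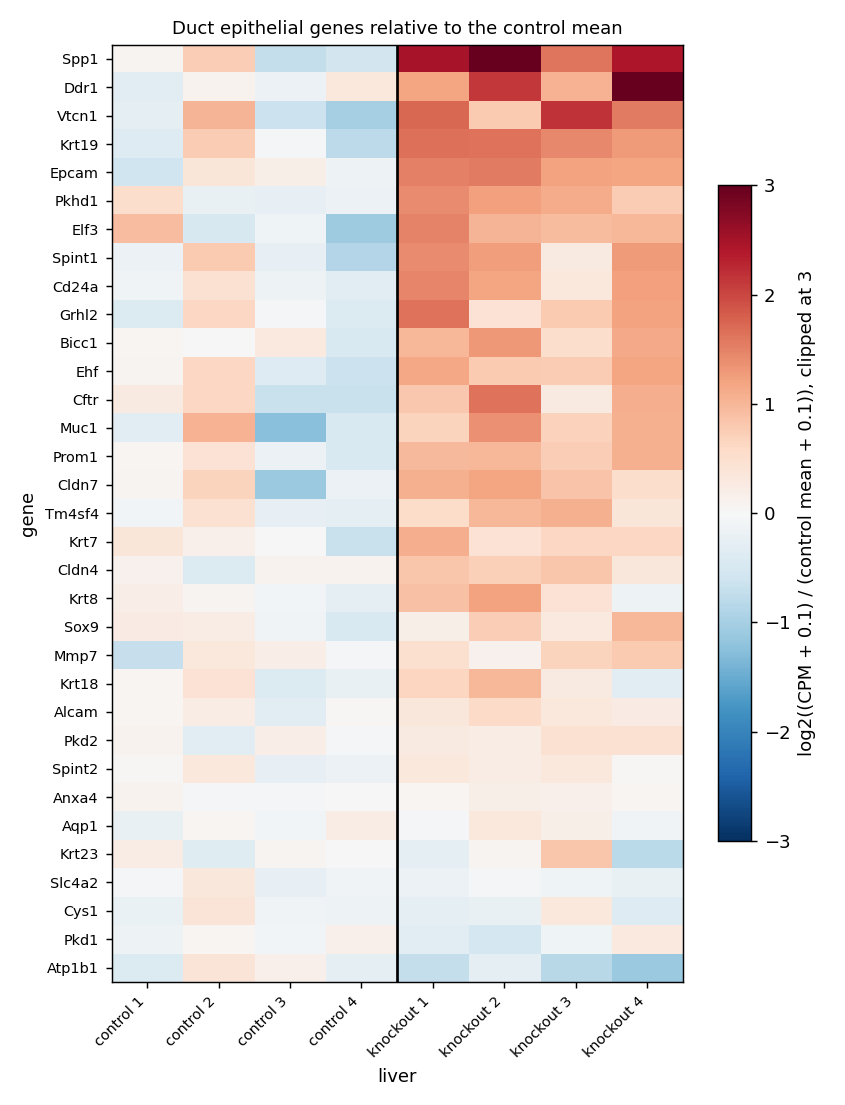
Each liver's level of 33 duct genes relative to the control mean, as log2((CPM + 0.1) / (control mean + 0.1)), clipped at 3, with red above and blue below the control mean. Knockout 2 was the highest of all livers for 11 of the 33 genes, and control 2 was the highest control for 20.

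The genes did not follow 1 order of livers. Over the 33 genes with at least 10 counts, knockout 2 was the highest of the 8 livers for 11, knockout 1 for 7, knockouts 3 and 4 for 6 each, and control 2 for 3. Knockout 4 was the lowest knockout for 16 genes, although it was the highest liver for Prom1, Ddr1, Sox9, Ehf, Pkd1 and Mmp7. Control 2 was the highest control for 20 genes.

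The list was divided by whether other liver cells also make a gene. The 24 genes classed as mainly ductal in the liver, with 18 tested, had a median log2 fold change of 1.13 and held the calls of Krt19, Epcam, Pkhd1 and Bicc1, and that of Spp1, which macrophages and stellate cells can also make. The 10 genes that hepatocytes or other liver cells share (Krt8, Krt18, Ddr1, Alcam, Pkd1, Pkd2, Slc4a2, Aqp1, Atp1b1 and Spint2) were all tested, had a median of 0.29 and no call. Over all genes tested, 2.06% were called. At an unadjusted p below 0.05 in edgeR, 4 of these 10 were higher and 1 lower, against 15 and 0 of the 18. The shares over all genes tested were 9.61% and 8.9%. For 3 of the 10, every knockout lay above every control, as for 5.54% of all genes tested. The division was made from general knowledge of the genes and with earlier results known, and no test compared the classes. The 7 tested genes with fewer than 4 controls at the count filter, Krt19 among them, were all classed as mainly ductal. The median and the counts of that class thus favour genes that were high in the knockouts. Level moved with the division, with exceptions. Tm4sf4 and Anxa4, classed as mainly ductal, had control means of 52.1 and 29.45 TPM, against 0.475 TPM for Krt19 and 0.63 TPM for Epcam. Which cells made Tm4sf4 and Anxa4 was not tested. Of the 13 duct genes with a mean under 1 TPM, 12 had a higher mean in knockouts, and of the other 21, 17 did, while over all genes with any count the shares were 58.9% and 47.6%. In these whole livers, a change in the number of duct cells and a change of RNA per cell cannot be told apart.

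**Figure D4:**
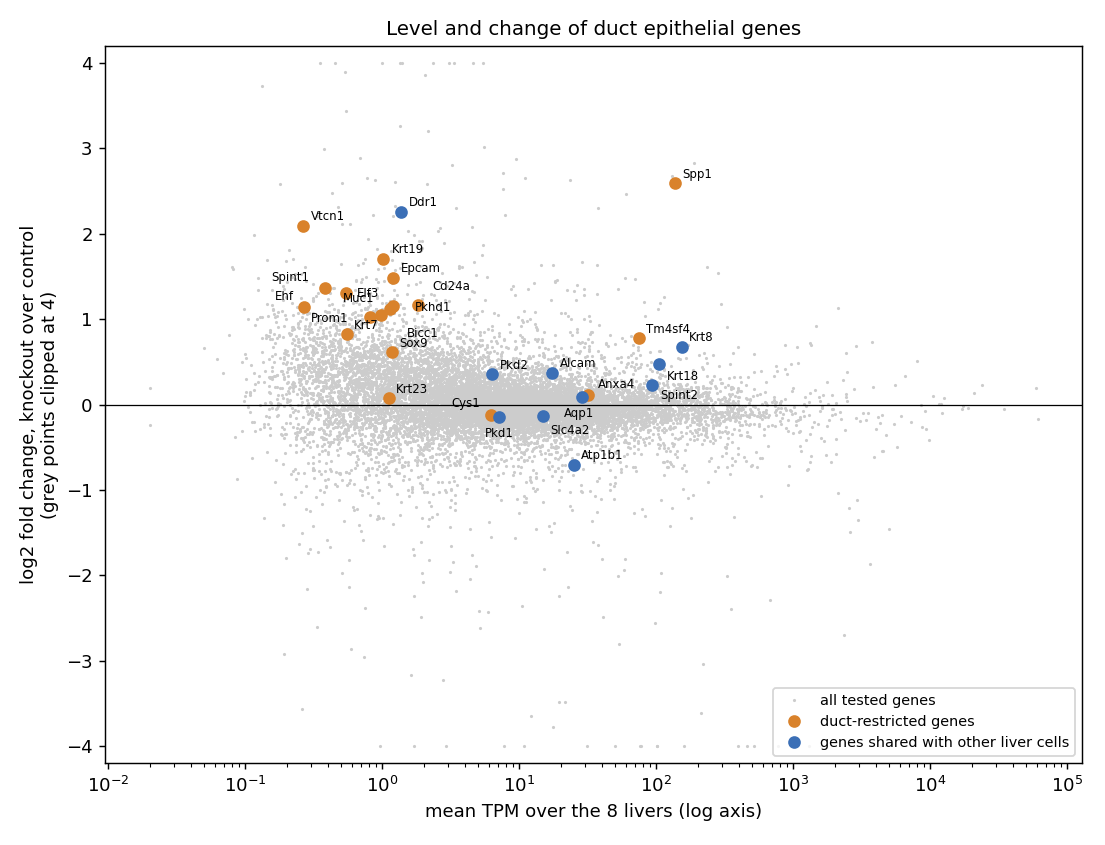
Log2 fold change against mean level in TPM (log axis) for the 13303 genes tested (grey) and the 28 tested duct genes. Orange marks genes classed as duct-restricted and blue those classed as shared with other liver cells. Spp1 combined a high level with a log2 fold change of 2.59, and Ddr1, at 2.26, was the shared gene farthest above 0.

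Isoform use was looked at through the transcript length that RSEM averages over the isoforms of a gene. Of the duct genes, 20 had a length that could vary and be tested, and none was called (limma, 0.0% of 11192 genes called). None of the 20 had an unadjusted p below 0.05, against 6.16% of all lengths tested, and the smallest was 0.0707 for Elf3.

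The wider pathways of duct epithelium were read from 8 lists, 174 genes of which 149 were tested. Of these, edgeR called 1 gene, Cldn14, as lower, where it called 2.06% of all genes tested, 1.21% as lower. DESeq2 called 13 as higher and 5 as lower, where it called 5.54% of 15115 genes over the whole table, 2.54% as higher. Among Notch and biliary fate genes, 18 of 20 were tested and none was called, and Hes6, a Hes-family repressor partner, had the smallest p (log2 fold change -0.92, edgeR adjusted p = 0.0598). The Hippo kinases and cofactors (15 tested of 16) were led by Tead1, a DNA-binding partner of YAP (log2 fold change 0.56, edgeR adjusted p = 0.094), and the YAP and TAZ target signature (18 of 22) by Amotl2 (log2 fold change -0.41, edgeR adjusted p = 0.119). Neither list had a call, and their medians were 0.001 and 0.06. At an unadjusted p below 0.05 in edgeR, the Notch and biliary fate list had 4 genes higher and 2 lower, the Hippo list 1 and 0, and the YAP and TAZ list 4 and 3. Over all genes tested, 9.61% were higher and 8.9% lower at that p.

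Of the genes of cilia and cystic liver disease, 23 of 24 were tested and none was called, with Dnajb11, a chaperone of the endoplasmic reticulum mutated in polycystic disease, at the smallest p (log2 fold change -0.47, edgeR adjusted p = 0.0933). Of the junction and polarity genes, 28 of 34 were tested. Cldn14, a claudin, fell from 2.93, 2.43, 4.34 and 2.30 CPM in controls to 0, 0.0396, 0 and 0.0682 CPM in knockouts (log2 fold change -6.41, SE 0.516, edgeR adjusted p = 0.000328), a call kept in all 8 fits with 1 liver left out. Its 271 counts in controls against 3 in knockouts were a ratio of 0.01 (95% counting interval 0.00206 to 0.0297). Which liver cells made Cldn14 was not tested. The ratios of Cldn4 and Cldn7, which were not tested, were above 1, though the interval of Cldn4, 0.879 to 18.6, spanned 1. Ductal secretion genes (18 tested of 23, none called) were led by Slc5a1, a glucose transporter of the duct surface (log2 fold change 1.64, edgeR adjusted p = 0.0933). Ductular reaction signals and basement membrane genes had the highest median of the 8 lists, 0.44, with 20 of 27 tested and none called. Col4a1, a basement membrane collagen chain, led them (log2 fold change 1.00, edgeR adjusted p = 0.102). Of the osteopontin receptors, 9 of 10 were tested and none was called, with Itga8 at the smallest p (log2 fold change 0.86, edgeR adjusted p = 0.125). Genes with an unadjusted p below 0.05 in edgeR numbered 2 higher and 3 lower for cilia and cystic disease, 4 and 1 for junctions, 4 and 2 for ductal secretion, 8 and 2 for ductular signals and 3 and 0 for osteopontin receptors. The shares over all genes tested were 9.61% higher and 8.9% lower.

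Markers of other liver cells were read beside the duct genes, and edgeR called 2 of them, Eln and Serpina1b. Eln was 1 of 12 tested stellate cell and portal fibroblast markers, and Serpina1b 1 of 10 hepatocyte markers. Over all genes tested, 2.06% were called. All 12 macrophage and Kupffer cell markers had positive fold changes and none was called (5 higher at an unadjusted p below 0.05), and their summed level was 185 to 387 TPM in controls and 314 to 549 TPM in knockouts. All 12 markers of stellate cells and portal fibroblasts were positive, 7 of them at an unadjusted p below 0.05, and their sum was 91.3 to 156 TPM in controls and 144 to 273 TPM in knockouts. For 4 of them (Col1a2, Col3a1, Eln and Fbln2) every knockout lay above every control, and Eln (elastin) was called (log2 fold change 1.30, edgeR adjusted p = 0.04997). That call was lost in each of the 8 fits with 1 liver left out, with an adjusted p from 0.0513 without control 3 to 0.132 without knockout 2. It was also lost with RLE factors (edgeR adjusted p = 0.0505), limma-voom, both fits on log2 TPM, non-robust estimation and a replicate block. DESeq2 called Eln (adjusted p = 0.00422). All 10 endothelial markers were positive with none called (3 at an unadjusted p below 0.05), at 75.1 to 100.2 TPM and 97 to 134 TPM. Over all genes tested, 9.61% were higher at that p in edgeR, and for 5.54% every knockout lay above every control. Knockout 2, the highest liver for Spp1, was also the highest for Col1a1, at 52.3 CPM.

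Lipid-associated macrophage markers overlapped, at 15.0 to 47.2 TPM in controls and 21.4 to 43.8 TPM in knockouts. Lymphocyte markers were at 2.22 to 3.96 TPM and 3.29 to 6.74 TPM, neutrophil markers at 0.78 to 3.87 TPM and 2.03 to 5.36 TPM, with Ly6g and Mpo at 0 in all livers, and proliferation genes at 27.2 to 38.1 TPM and 29.6 to 46.5 TPM. Mesothelial markers, which share keratins with ducts, summed to 1.12 to 2.64 TPM and 0.59 to 2.49 TPM, with Calb2 at 0. In the list for pancreas and gut, Prss1, Prss2, Pnlip, Amy2b, Ctrb1 and Try4 were at 0, and the rest summed to 116 to 225 TPM and 168 to 217 TPM. Nearly all of that sum was Fabp2, with means of 137.7 TPM in controls and 133.4 TPM in knockouts, and Cela1, with 36.8 and 49.4 TPM. Hepatocyte markers summed to 66670 to 90980 TPM and 86940 to 91870 TPM. Of the 10, 8 had negative fold changes and Alb and Ttr positive ones, with a median log2 fold change of -0.18. For Cps1, a urea cycle enzyme, and Serpina1b, an antitrypsin, every knockout lay below every control, as for 5.92% of all genes tested. Cps1 did not pass the edgeR test (log2 fold change -0.62, edgeR adjusted p = 0.0763) and was called by DESeq2 (adjusted p = 0.00228), and Serpina1b was called as lower by edgeR (log2 fold change -0.61, edgeR adjusted p = 0.0232), a call lost without control 1, control 4 or knockout 1, 2 or 3, with an adjusted p up to 0.0879. The part of these cells in the differences of the duct genes was not tested.

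**Figure D5:**
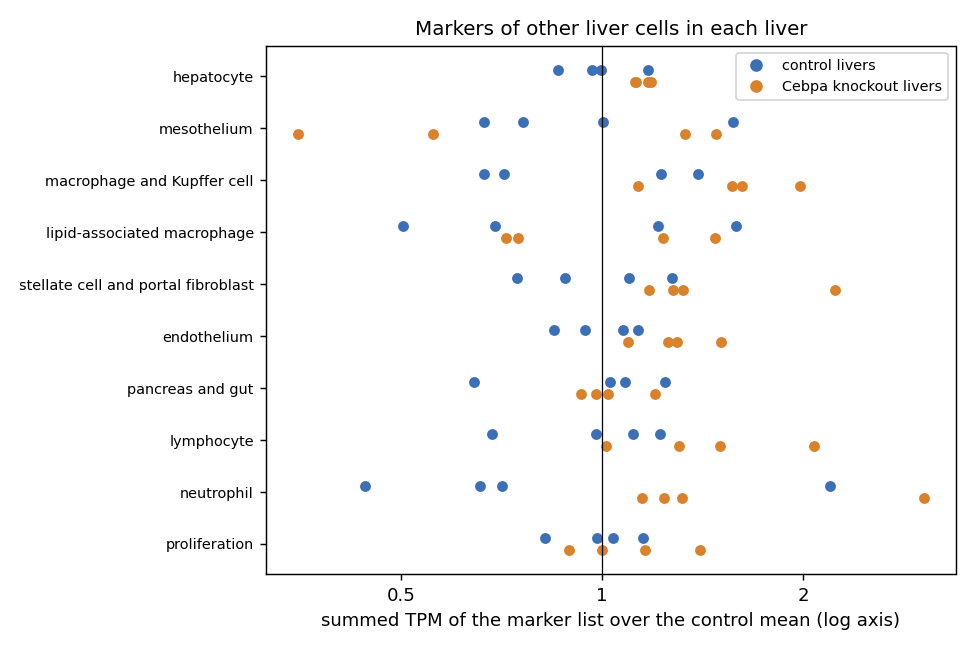
Summed TPM of the markers of 10 cell types or states in each liver, divided by the control mean of the list (log axis), with 4 control livers (blue) and 4 knockout livers (orange). The macrophage, stellate cell and endothelial lists had higher ranges in the knockouts with overlap, and the mesothelial list had 2 knockouts below all controls.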

How the data were processed

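PolyA RNA of 8 livers was sequenced with a stranded TruSeq kit, per the labels' protocols. Tools listed in the submitters' processing notes are RSEM 1.2.22, STAR 2.5.1, Trimmomatic 0.36, Picard 1.84 and DESeq2, with the build mm10. An annotation release and a strand setting were not given in the sources used here. The deposited RSEM tables hold expected counts, which are estimated counts that divide shared reads among genes, and the authors' TPM, which is scaled to transcript length and to a fixed total per liver, with the length RSEM averaged over isoforms. Gene identifiers were matched to GENCODE M21 on mm10 for coordinates.

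Expected counts were rounded and fitted over all genes in R 4.3.3 with edgeR 4.0.16 (filterByExpr by group, minimum count 10, minimum total 15, TMM factors, robust quasi-likelihood test, two-sided, Benjamini-Hochberg over 13303 genes, threshold 0.05). Each SE came from the fold change and the F statistic. CPM are on TMM-scaled library sizes. Isoform lengths were tested with limma 3.58.1 on the log2 scale. Ratios of untested genes carry exact binomial 95% intervals from the summed counts. The steps were tested on simulated data.

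Livers were grouped by their titles, since the replicate label reads the same for all. Nothing ties the numbers of the titles to litters or days, and same-numbered livers deviated from their group means with correlations of 0.207, 0.009, -0.024 and -0.067, so they were not paired. No 2 livers of a group agreed within sampling noise. The labels give no batch. Alternatives were library size alone, RLE factors, no filter, 1 CPM in 4 livers, DESeq2 1.42.0, limma-voom, limma-trend on log2(TPM + 1) and log2(TPM + 0.1), no robust estimation, a replicate block, each liver left out and control 2 with knockout 4 left out together. The duct genes, the role groups, the other lists and the alternatives were chosen with earlier results of these data known, so no list count is independent support.

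All 34 duct genes were accounted for: values in every liver were given for those called and for the 2 with the smallest p in each role group. From each pathway list, called genes were named, or otherwise the gene with the smallest p. Cell type markers were read as lists, with the genes at 0 and any called gene named. Col1a1, Col1a2, Col3a1, Fbln2, Cps1, Alb, Ttr, Cd9, Fabp5, Itgax, Gpnmb, Mmp12, Fabp2 and Cela1 were named after their values were seen. The rest of the lists is covered by counts, and results on 1 gene and 1 motif are not reported here. Promoter windows came from RefSeq (GRCm38.p6) and were cut to the bases before the start. The series-wide table repeated the per-liver values. Figures were drawn with matplotlib 3.10.9.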

Additional observations from a re-analysis of the deposited data

Results flagged for a closer look

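Of 68 sets of 4 livers, each being 1 duct gene in 1 genotype, 7 held a liver far from the other 3, and chance alone flags about 1 in 20. Pkhd1 was at 10.02 CPM in control 1 and at 5.81 to 6.12 CPM in the other controls. Cys1 was at 9.95 CPM in control 2, against 6.64 to 7.08 CPM. Anxa4 was at 43.5 CPM in control 1, against 39.4 to 40.1 CPM, and Elf3 at 1.26 CPM in knockout 1, against 0.823 to 0.87 CPM. The other 3 rested on single counts: Cldn4 was at 0 CPM in control 2, against 0.0421 to 0.0451 CPM, and Sctr was at 0.0434 CPM in control 4 and 0.0341 CPM in knockout 4, with 0 in the other livers of each group.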

How the results depend on the processing

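Over all genes, edgeR called 113 as higher and 161 as lower. DESeq2 called 384 and 453, and the fits on log2(TPM + 1) and log2(TPM + 0.1) called 84 and 82 as lower with 144 and 137 as higher, so that the higher genes outnumbered the lower there. With library size alone the split was 161 higher and 115 lower, and with control 2 and knockout 4 left out together it was 185 and 246. Leaving out 1 liver gave 46 to 167 higher and 61 to 205 lower. The median of all genes was 0.004, 0.073 with library size alone and 0.116 on log2(TPM + 0.1). Of the duct genes, DESeq2 called 10 as higher and 1 as lower, and leaving out 1 liver gave 0 to 7 higher and 0 lower. With the replicate number as a block, 78 of all genes were higher and 98 lower. Among the duct genes, 3 were higher (Ddr1, Pkhd1 and Spp1) and 1 lower (Atp1b1) in that fit. The block is no pairing by design. RLE factors, library size alone, a filter of 1 CPM and non-robust estimation each called the same 5 duct genes, limma-voom and both TPM fits called 4 of them, all but Bicc1, and with no filter Cd24a took the place of Spp1. For the pathway lists (0 higher and 1 lower), no filter gave 1 and 2, DESeq2 13 and 5, log2(TPM + 1) 2 higher, the fit without both livers 2 and 2, and leaving out 1 liver 0 to 2 higher and 1 to 2 lower. Some small fold changes changed sign, and none of them passed the test: Krt23 was -0.085 with limma-voom, -0.006 with the block, -0.038 without control 2 and -0.332 to 0.307 with 1 liver left out, Pkd1 0.097 and 0.111, Cys1 0.013 and 0.016 and Slc4a2 0.051 and 0.055 on log2(TPM + 1) and log2(TPM + 0.1), and Cys1 -0.298 to 0.031 with 1 liver left out. Without control 2 and knockout 4 together, Cys1 was 0.11 and Slc4a2 0.025. The cause of these changes was not tested. No length was called by limma under the settings run. Depth limits Cldn4, Cldn7, Grhl2, Cftr, Sctr and Mmp7, which were too sparse to test.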
